A study of Mus musculus with 13 samples.

Results

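Pecam1-positive cells are the cells of regenerating mouse liver sections that carried at least 3 transcripts of Pecam1, fewer than 3 of Adgre1, fewer than 3 of Lrat and fewer than 3 of Wnt2, Wnt9b and Rspo3 together. They numbered 14430 of 131221 cells, or 11%, and held 9.67% of all transcripts counted in cells. The sections came from male C57BL/6 mice labelled as 2 months old, all of which had 2/3 of the liver removed (partial hepatectomy), and the newly grown lobes were imaged by Molecular Cartography, which locates single transcripts of a chosen panel in the tissue, here of 100 genes. Of the 13 sections, 2 each were taken 0 h, 24 h, 48 h and 72 h after surgery, 3 at 14 d, and 1 each at 3 mo and 6 mo. Since 1 age is given for every section, the mice of the 3 mo and 6 mo sections were older if it was their age at surgery, and that age and the time since surgery cannot then be told apart. Both 24 h sections are listed under a single slide position with no replicate number, and their counts were added up, leaving 12 libraries. Nothing in the labels says that sections of a time came from separate mice, and the p-values then measure only the spread between sections, which may be technical.

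Endothelial cells line the sinusoids, the portal vessels and the central veins of the liver, and PECAM1 (CD31) is an adhesion molecule at the contacts between them, also carried by platelets and some leukocytes. Wnt2, Wnt9b and Rspo3 are known as products of endothelium at and near the central vein, where they sustain the Wnt-dependent gene programme of the surrounding hepatocytes. Adgre1 (F4/80) marks macrophages and Lrat marks the vitamin A storing stellate cells. The rule therefore keeps Pecam1-bearing cells that lie below its threshold for these 3 programmes, though they can still carry some of these transcripts.

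The name endothelial was not settled by these data. Of the 15 endothelial markers looked for, Pecam1 was the single one in the panel, and Rspo1 was the only other gene of the wider endothelial list that the rule did not use. Genes known from hepatocytes made up 61.1% to 77.4% of the counts of Pecam1-positive cells per section, against 67.9% to 87.9% in Pecam1-low cells, which met the same limits on the other rule genes but had fewer than 3 Pecam1 counts (95785 cells). Median totals ran from 200.5 to 525 counts per Pecam1-positive cell and from 243 to 703 per Pecam1-low cell, and in every section the Pecam1-positive value was the lower one. The cells are therefore called Pecam1-positive here. The sources used here do not say how cells were outlined, and the part of neighbouring hepatocyte transcripts in the counts was not tested.

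Each section held between 1678015 and 9619206 counts in cells. Slide 1 carried all 24 h and 48 h sections, the 3 mo section and 1 section each of 0 h and 72 h. Slide 2 carried the other 0 h and 72 h sections and the 6 mo section, and slide 3 the 14 d sections alone, so the effect of slide 3 cannot be told apart from that of 14 d. Between sections of one time the chi-square was at least 41.1 per degree of freedom, far more than counting error gives. Cell names, which are positions, coincided between sections for 37 cells.

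The rule itself set the Pecam1 level of the cells, which is given as a description. Of the 14430 cells, 3210 (22.2%) had exactly 3 Pecam1 counts, 2238 (15.5%) had 4, 1620 (11.2%) had 5, 3701 (25.6%) had 6 to 9 and 3661 (25.4%) had 10 or more. Just outside the threshold lay 5402 cells with 2 counts that met the other limits. The mean Pecam1 count per Pecam1-positive cell was 4.67 and 4.42 in the 0 h sections, 6.12 and 6.45 at 24 h, 5.59 and 6.55 at 48 h, 8.08 and 7.45 at 72 h, 9.59, 10.2 and 9.30 at 14 d, 4.49 at 3 mo and 4.44 at 6 mo. Among all 22657 cells with at least 3 Pecam1 counts, the limits on the other genes kept 63.7%. They removed 4976 cells for Lrat, 3207 for Wnt2, Wnt9b and Rspo3 and 1650 for Adgre1, with overlaps between these. The share kept was lowest in the first 72 h section, at 41.0%, and highest in the second 0 h section, at 77.2%.

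Pecam1-positive cells made up a larger share of the cells at 14 d than at any other time. They made up 8.39% and 5.32% of all cells at 0 h, 9.81% at 24 h, 9.73% and 8.06% at 48 h, 8.97% and 11.1% at 72 h, 16.0%, 16.2% and 16.5% at 14 d, 8.62% at 3 mo and 6.36% at 6 mo. The 3 sections of 14 d lay close together and above every other library, while the shares at 24 h, 48 h and 3 mo lay near or above that of the first 0 h section. The shares differed between the times more than between sections of the same time (F = 7.99 on the logit scale, permutation p = 0.0159, n = 12 libraries). With the 14 d sections counted as 1 library, F was 2.50 and the permutation p 0.222, and leaving out any of the 3 sections of 14 d also ended the call (permutation p = 0.0589, 0.0594 and 0.0597 without the first, second and last of them).

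The rule counts transcripts, so its share depends on the counts per cell, and shares were also compared at 1 depth. After each cell was thinned to 100 counts, cells with any Pecam1 count made up 18.3% and 14.4% at 0 h, 19.8% at 24 h, 21% and 20.6% at 48 h, 25% and 20.8% at 72 h, 25.7%, 26.8% and 26.6% at 14 d, 24.4% at 3 mo and 17.6% at 6 mo. Without thinning these shares ran from 24.3% in the second 0 h section to 45.8% in the second 14 d section. Thinning left out 2.86% to 17.0% of the cells of a library. On this scale the first 72 h section and the 3 mo section lay just below the 14 d sections (permutation p = 0.0215 across the times). This measure sets no limit on Adgre1, Lrat, Wnt2, Wnt9b and Rspo3, so it differs from the rule's share in the cells counted as well as in depth. Of cells with at least 3 Pecam1 counts, those limits kept 41.0% in the first 72 h section and 57.2% at 3 mo. At 14 d they kept 61.1%, 59.4% and 68.5%. The parts of depth and of the limits were not separated. Within slide 1 the rule's share spanned 8.06% to 9.81% over 0 h, 24 h, 48 h, 72 h and 3 mo, and within slide 2 it was 5.32% at 0 h, 11.1% at 72 h and 6.36% at 6 mo.

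**Figure D1:**
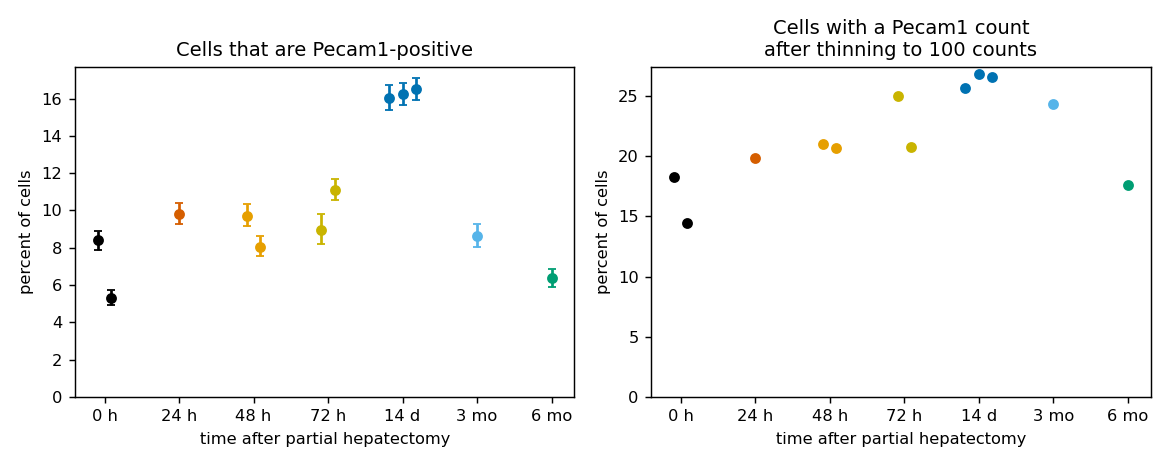
Percent of cells that met the rule (left, with Wilson 95% binomial intervals that cover counting error only) and percent of cells with at least 1 Pecam1 count after thinning each cell to 100 counts (right), by time after partial hepatectomy, with 1 point per library. The right side sets no limit on the other genes of the rule. On the left the 14 d libraries, at 16.0% to 16.5%, stand above all others. On the right the gap to the first 72 h section (25%) and to 3 mo (24.4%) is small.

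Compared with Pecam1-low cells of the same sections, Pecam1-positive cells carried more transcripts of the Wnt receptor Fzd4, the hypoxia-inducible factor Epas1, the ligand Wnt1 and the leukocyte genes Ptprc and Lyz2, and fewer transcripts of hepatocyte genes such as Cyp7a1 and G6pc. Of 91 genes tested outside the rule, 56 passed (61.5%), 25 higher (27.5%) and 31 lower (34.1%), by edgeR's quasi-likelihood test with the section as a block at an adjusted p under 0.05. The median log2 difference over all genes tested was -0.01. Levels are CPM, that is counts relative to the panel total, here scaled by TMM within each section. This scaling was chosen after the data were seen (the planned TMM over all libraries gave 23 higher and 39 lower genes). Scaling by total counts moves the median gene up by 0.21 in log2 and gives 41 higher and 17 lower genes, and scaling by cell number moves it by -0.25 and gives 15 higher genes. Fewer cells of a kind and less RNA per cell cannot be told apart in these sums. Below the rule's limits, Wnt2, Wnt9b, Rspo3, Lrat and Adgre1 were higher in Pecam1-positive than in Pecam1-low cells in 12 of 12 libraries. Their medians were 967, 131, 86.2, 1993 and 375 CPM in Pecam1-positive cells. In Pecam1-low cells these were 109, 28.1, 30.3, 654 and 190 CPM. These values are a description, since the rule used these genes.

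Among Wnt receptors, Fzd4, a frizzled known for its role in vascular endothelium, ran from 2571 to 5642 CPM in Pecam1-positive cells (median 3945), against 715 to 2213 CPM in Pecam1-low cells (median 1338). The ranges over libraries did not overlap, and the level was higher in Pecam1-positive cells in 12 of 12 libraries. The difference was 2.93-fold (log2 1.55 ± 0.13, SE; adjusted p = 3.18e-08 by edgeR). The co-receptor Lrp5 ran from 8184 to 21533 CPM in Pecam1-positive cells and from 4273 to 14771 CPM in Pecam1-low cells, and was higher in 12 of 12 libraries (1.84-fold, edgeR adjusted p = 2.32e-09). Lrp6, the partner co-receptor, was 1.45-fold higher, Fzd6 1.64-fold and Fzd1 1.41-fold, the last of which lost its call among cells of like total counts (adjusted p = 0.0814 by edgeR). In the opposite direction, the R-spondin receptors Lgr5 and Lgr4 were lower, as were Fzd5 (log2 -0.17, not without the first 24 h section, adjusted p = 0.0948) and Fzd7 (-0.34, not without any of the 48 h or 72 h sections, adjusted p from 0.0527 to 0.0629). Of the 14 frizzled and co-receptor genes, 5 were higher and 4 lower (27.5% and 34.1% over all 91 genes), with a median log2 difference of 0.39, and Fzd2, Fzd3, Fzd8, Fzd9 and Fzd10 did not pass, with log2 differences from -0.01 to 0.64.

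Epas1, which encodes HIF-2 alpha and was first described in endothelial cells, ran from 8194 to 16374 CPM in Pecam1-positive cells (median 11204), against 2802 to 5677 CPM in Pecam1-low cells (median 3916). Its ranges did not overlap either, and the difference was 2.70-fold (log2 1.43 ± 0.06, SE; edgeR adjusted p = 3.98e-12). The related Hif1a, a scarce transcript here with a median of 73.8 CPM in Pecam1-positive and 41.3 CPM in Pecam1-low cells, was 1.55-fold higher. Gpc1, a cell-surface heparan sulphate proteoglycan, ran from 104 to 426 CPM in Pecam1-positive cells, against 70.4 to 205 CPM in Pecam1-low cells (2.66-fold, edgeR adjusted p = 1.27e-07). In the second 0 h section Gpc1 differed by only 0.15 in log2 between the cell classes. Ccnd1, the cyclin D1 gene of the G1 phase, was 2.18-fold higher, at 4888 to 15994 CPM in Pecam1-positive cells and 1645 to 8083 CPM in Pecam1-low cells, and higher in 12 of 12 libraries. The cell cycle list held 3 tested genes here, of which Ccnd1 and the scarce Ccna1 were higher, while Ccne1 had a log2 difference of -0.19 (adjusted p = 0.156). The call of Ccna1 (log2 1.04, edgeR adjusted p = 0.038) ended without the first 48 h, either 72 h or the second or last 14 d section (adjusted p = 0.0574, 0.0596, 0.106, 0.131 and 0.0678), and under the planned scaling (adjusted p = 0.0601).

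Of the 15 Wnt ligand genes tested, 5 were higher (Wnt1, Wnt6, Wnt4, Wnt7b and Wnt5a), against 27.5% of all 91 genes, and Wnt5b was lower. Wnt1 showed the largest difference of any gene tested under this scaling, 5.08-fold (log2 2.35 ± 0.18, SE; edgeR adjusted p = 7.14e-09). It ran from 247 to 981 CPM in Pecam1-positive cells, against 36.6 to 267 CPM in Pecam1-low cells, and was higher in 12 of 12 libraries. In counts this is small, a median over libraries of 0.0992 Wnt1 transcripts per cell in cells with 3 Pecam1 counts and 0.143 in cells with 10 or more, against 0.0314 in Pecam1-low cells. It was higher at 10 or more Pecam1 counts than at 3 in 7 of 12 libraries. Wnt4 had a median of 171 CPM in Pecam1-positive and 47.7 CPM in Pecam1-low cells (2.41-fold), and was higher in 11 of 12 libraries. Among cells of like total counts its log2 difference was 0.46 (edgeR adjusted p = 0.0594), against all other cells 0.19 (adjusted p = 0.36). Wnt6 rested on a median of 4.32 CPM in Pecam1-positive and 1.52 CPM in Pecam1-low cells, and did not pass against all other cells (adjusted p = 0.0877). The calls of Wnt7b and Wnt5a ended among cells of like total counts, at log2 differences of 0.28 and -0.0045. The remaining ligands tested, Wnt2b, Wnt3a, Wnt7a, Wnt8a, Wnt9a, Wnt10a, Wnt10b, Wnt11 and Wnt16, had log2 differences from -0.52 to 0.45 and did not pass.

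Both leukocyte genes tested were higher. Ptprc, which encodes the leukocyte antigen CD45, ran from 638 to 2177 CPM in Pecam1-positive cells and from 212 to 739 CPM in Pecam1-low cells (2.87-fold, edgeR adjusted p = 6.93e-09). Lyz2, the lysozyme gene of myeloid cells, ran from 1861 to 15756 CPM in Pecam1-positive cells and from 833 to 7760 CPM in Pecam1-low cells (2.62-fold, edgeR adjusted p = 7.14e-09). Among cells of like total counts the log2 differences were 0.48 for Ptprc and 0.42 for Lyz2, against 1.52 and 1.39 in the whole set. Against all other cells, which include the Adgre1-positive ones, Ptprc differed by 0.59 and Lyz2 by 0.27, and the second no longer passed (adjusted p = 0.0621). Of the bile duct genes, Cldn7 was 1.71-fold higher but not among cells of like total counts (log2 0.14, adjusted p = 0.679), and Sox9 had a log2 difference of 0.15. Rspo1 was 1.65-fold higher at a median of 11.9 CPM in Pecam1-positive and 12.2 CPM in Pecam1-low cells, higher in 8 of 12 libraries, and its call ended without the second 14 d section (adjusted p = 0.0872).

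The genes that were lower included 12 of 19 hepatocyte markers (34.1% over all 91 genes), none of which was called higher, with a median log2 difference of -0.23. Cyp7a1, which controls the first step from cholesterol to bile acids, differed most, with 23.9 to 1232 CPM in Pecam1-positive cells (median 511), against 169 to 4819 CPM in Pecam1-low cells (median 2646), and was lower in 12 of 12 libraries (log2 -2.21 ± 0.11, SE; edgeR adjusted p = 5.44e-11). Other named differences were G6pc, the glucose-6-phosphatase subunit (log2 -1.37), the complement gene C6 (-0.98), Cyp27a1 (-0.85) and Cyp2e1 (-0.82). Cyp2e1 ran from 33361 to 279852 CPM in Pecam1-positive cells and from 67977 to 469192 CPM in Pecam1-low cells, lower in 12 of 12 libraries. Among other genes, the Wnt target Lgr5 (-1.58), the frizzled-removing ligase Rnf43 (-1.18), the transcription factor Tbx3 (-1.09) and Wnt5b (-0.82) were lower. Lgr5, Rnf43 and Wnt5b were lower in 12 of 12 libraries and Tbx3 in 11 of 12. Of the 4 Wnt feedback genes, Rnf43, Znrf3 and Axin2 were lower and Sulf2 did not pass, and Axin2 lost its call against adjacent Pecam1-low cells (log2 -0.04, adjusted p = 0.612). Slc16a10, an aromatic amino acid transporter, was lower at a median of 1.46 CPM in Pecam1-positive and 7.13 CPM in Pecam1-low cells, and lower in 10 of 12 libraries. Of the 9 central genes used to score position 6 were lower and of the 6 portal genes 4, with median log2 differences of -0.31 and -0.24, so genes of both sides were among the lower ones. Arg1 (log2 -0.15), Fzd5 and Oat (-0.20) changed sign with total-count scaling, to 0.06, 0.04 and 0.02, and Oat was higher against adjacent Pecam1-low cells (0.15). The call of Arg1 also ended without single sections of 0 h, 72 h, 14 d and 6 mo (adjusted p up to 0.0793).

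**Figure D2:**
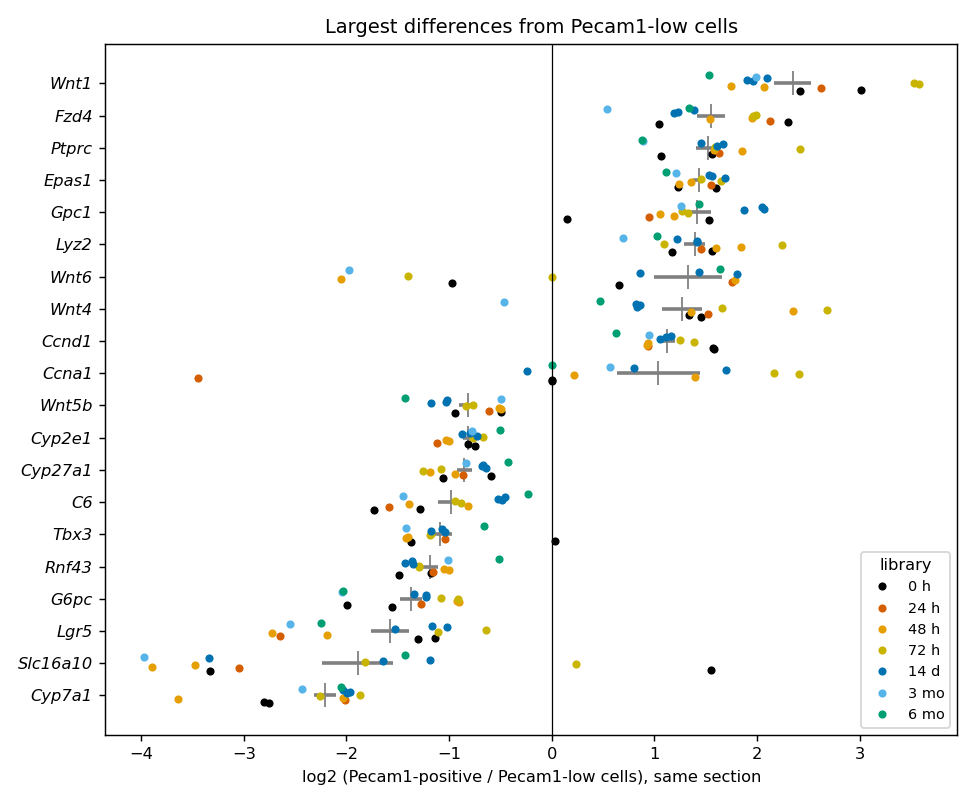
Log2 ratio of the level in Pecam1-positive cells to that in Pecam1-low cells of the same library for the 10 largest differences in each direction, with 1 point per library coloured by time and the fitted value with its SE in grey. Fzd4, Epas1, Lyz2, Ptprc, Wnt1, Gpc1 and Ccnd1 lie above 0 in all 12 libraries and Cyp7a1, G6pc, Rnf43, Lgr5 and Cyp2e1 below 0 in all 12, while the scarce Wnt6, Ccna1 and Slc16a10 scatter over both sides.

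Within the Pecam1-positive cells, the genes separated by whether they followed the Pecam1 count of the cell. This is a description, since the rule chose the cells by that count. The median over 12 libraries of the mean Fzd4 count per cell was 0.948 in cells with 3 Pecam1 counts, 1.05 with 4, 1.22 with 5, 1.54 with 6 to 9 and 2.29 with 10 or more, while it was 0.579 in Pecam1-low cells. Epas1 followed the same order, at 2.42, 2.61, 2.90, 3.41 and 5.54 counts per cell, with 1.67 in Pecam1-low cells. Both were higher at 10 or more Pecam1 counts than at 3 in 12 of 12 libraries, as was Lrp5. Ptprc did not follow it, with medians of 0.365 counts per cell at 3 Pecam1 counts and 0.243 at 10 or more, and was higher at 10 or more in 2 of 12 libraries. Lyz2 was higher at 10 or more in 6 of 12 libraries. The class of 10 or more held 14 to 1089 cells per library (median 125), and these tallies weigh all libraries alike. Median totals per cell changed little over these classes, from 255.5 counts at 3 Pecam1 counts to 258.75 at 10 or more. The hepatocyte share of counts was 73.2% at 3 Pecam1 counts and 65.2% at 10 or more, against 78.8% in Pecam1-low cells, and Cyp2e1 was lower at 10 or more in 11 of 12 libraries.

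**Figure D3:**
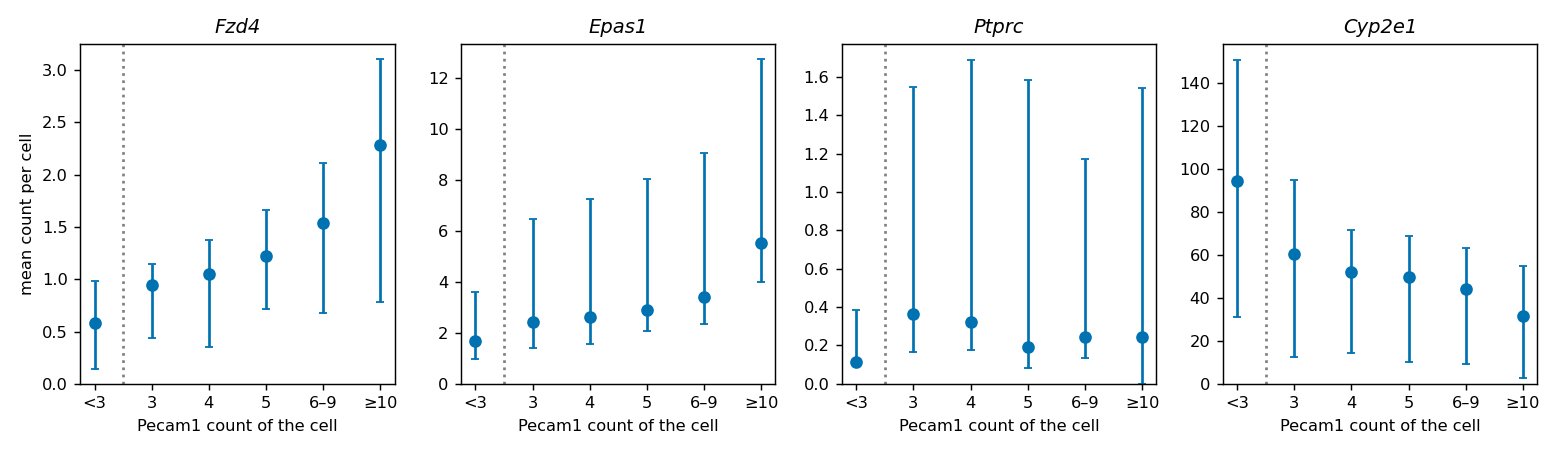
Mean count per cell of Fzd4, Epas1, Ptprc and Cyp2e1 in cells grouped by their Pecam1 count, as the median (point) and the lowest to highest value (bar) over 12 libraries; cells left of the dotted line are Pecam1-low. Fzd4 reaches 2.29 and Epas1 5.54 counts per cell at 10 or more Pecam1 counts, Ptprc stays between 0.192 and 0.365 over the Pecam1-positive classes, and Cyp2e1 falls to 31.5.

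Along the lobule, Pecam1-positive cells lay on the portal side of the middle. Position was ranked within a section from 0 (portal) to 100 (central) by a score of 9 central minus 6 portal hepatocyte genes over the 20 nearest other Pecam1-low cells, so that a cell added nothing to its own rank. The mean rank of Pecam1-positive cells was 46.1 and 45.4 at 0 h, 39.4 at 24 h, 42.4 and 40.1 at 48 h, 42.4 and 46.2 at 72 h, 47.1, 46.9 and 48.1 at 14 d, 48.2 at 3 mo and 50.9 at 6 mo. It was 4.32 ± 3.20 (SD, n = 12) below that of Pecam1-low cells, and below it in 11 of 12 libraries, with 6 mo as the exception (exact sign-flip permutation test, two-sided, p = 0.000977, adjusted p = 0.00195 over 4 position comparisons). The lean went with the rule's limit on the central vein genes: without the limit on Wnt2, Wnt9b and Rspo3 on either side, cells with at least 3 Pecam1 counts lay 1.11 ranks to the central side of the others (exact permutation, adjusted p = 0.108 over 4 position comparisons). The cells that this limit removes are central, as the Wnt2/Wnt9b/Rspo3-positive cells had mean ranks from 78.0 to 91.2, and Pecam1-positive cells lay 40.1 ± 5.02 ranks below them (SD, n = 12). This is a description, since the rule used these genes.

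Against Lrat-positive cells, Pecam1-positive cells lay 6.84 ± 7.85 ranks to the portal side, in 10 of 12 libraries (n = 12, exact permutation, adjusted p = 0.0156), and against Adgre1-positive cells 3.27 ± 5.12 ranks, in 8 of 12, which did not pass (exact permutation, adjusted p = 0.0518). Without the limit on Wnt2, Wnt9b and Rspo3 neither passed, at -1.28 ranks against Lrat-positive cells, still on the portal side (exact permutation, adjusted p = 0.496), and 2.29 ranks against Adgre1-positive cells, on the central side (adjusted p = 0.129). In the portal tercile of the ranks 6.16% to 18.1% of the cells were Pecam1-positive (median 12.4%), and in the central tercile 4.66% to 14.7% (median 7.35%), with the portal share the larger in 11 of 12 libraries. Fzd4 and Epas1 per Pecam1-positive cell had medians of 1.57 and 3.71 in the portal tercile and 1.16 and 2.55 in the central tercile. In Pecam1-low cells these medians were 0.697 and 1.73 in the portal tercile and 0.424 and 1.37 in the central tercile. The mean Pecam1 count per Pecam1-positive cell, which both genes followed, was also higher in the portal than in the central tercile, in 12 of 12 libraries. Its part in the difference between terciles was not tested. Lrp5 ran the other way in Pecam1-positive cells, with 3.82 counts per cell in the portal and 5.02 in the central tercile.

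**Figure D4:**
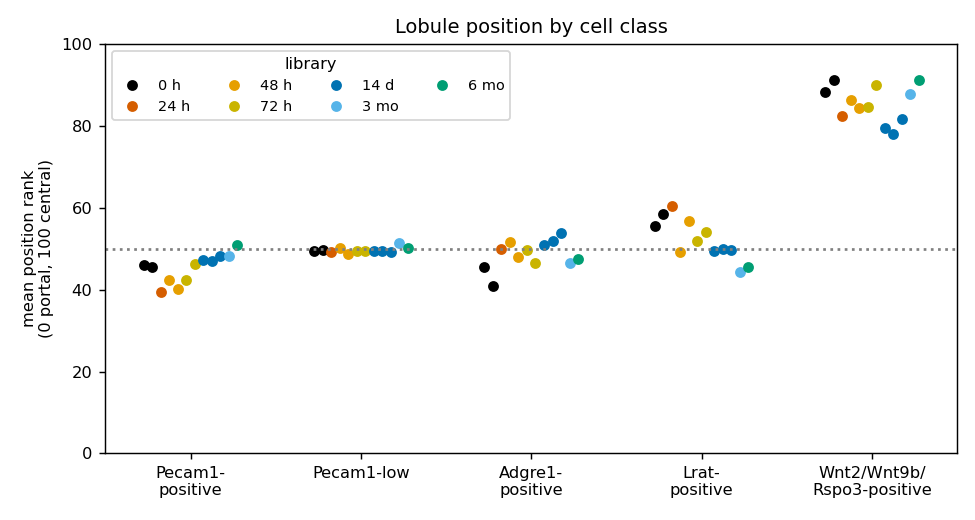
Mean position rank (0 portal, 100 central; dotted line at 50) of 5 cell classes, with 1 point per library coloured by time. Pecam1-positive cells lie between 39.4 and 50.9, Pecam1-low cells between 48.7 and 51.3, and Wnt2/Wnt9b/Rspo3-positive cells between 78.0 and 91.2.

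Pecam1-positive cells were slightly more common around one another than around Pecam1-low cells. Among the 10 nearest cells, 9.46% and 6.98% were Pecam1-positive around Pecam1-positive cells at 0 h, against 8.25% and 5.21% around Pecam1-low cells. The largest gap was at 24 h, with 14.3% around Pecam1-positive and 9.64% around Pecam1-low cells. The log2 ratio averaged 0.164 ± 0.202 (SD, n = 12) and was above 0 in 8 of 12 libraries (exact sign-flip permutation test, two-sided, p = 0.0161). It was below 0 in the 3 sections of 14 d and at 3 mo, where the ratios were 0.989, 0.981, 0.989 and 0.968. With at least 5 Pecam1 counts in the rule the mean log2 ratio was 0.499.

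Within Pecam1-positive cells, transcripts of Gstm3, Gstm2, Ccnd1 and Ccne1 were higher at 24 h, 48 h and 72 h than at 0 h, and those of hepatocyte markers such as Cyp2e1, C8b and Pon1 lower. Of 86 genes tested against 0 h, edgeR's quasi-likelihood test called 23 at 24 h (26.7%, 9 higher and 14 lower), 20 at 48 h (23.3%, 9 and 11) and 17 at 72 h (19.8%, 9 and 8). The medians over all genes tested were log2 changes of -0.10, 0.05 and 0.05. Total-count scaling shifted the median gene up by 0.41, 0.46 and 0.27, and gave 18 higher and 3 lower genes at 24 h, 24 and 4 at 48 h and 15 and 6 at 72 h. Scaling by cell number shifted it up by 0.48, 0.60 and 0.79, and gave 18 higher and 2 lower genes at 24 h, 24 and 3 at 48 h and 29 and 0 at 72 h, so that no fall at 72 h passed on that scale. At 24 h there is 1 library, which is assumed to vary like the others. Of 13 Wnt ligand genes, 2 were higher and 1 lower at 24 h, 2 and 2 at 48 h, and 1 and 0 at 72 h, and of 13 frizzled and co-receptor genes 1 passed at 24 h (Lrp6, lower) and 1 at 48 h (Lgr4, higher). The call of Lrp6 ended with total-count scaling (adjusted p = 0.131), within slide 1 (0.242) and without the second 24 h, the first or second 14 d or the 6 mo section (up to 0.13), and that of Lgr4 without any of 9 single sections (up to 0.149) and within slide 1 (0.236). The hepatocyte share of counts in Pecam1-positive cells was 76.3% and 77.4% at 0 h and 61.1% to 69.6% from 24 h to 72 h, and its part in these changes was not tested. In all 3 comparisons 9 genes passed, Gstm3, Gstm2, Ccnd1 and Ccne1 higher, and Cyp2e1, Cyp27a1, C8b, Pon1 and Prodh lower.

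Gstm3, a mu-class glutathione S-transferase, showed the largest rise at each of these times. Its level in Pecam1-positive cells (CPM scaled among these cells) was 2308 and 2852 at 0 h, 19685 at 24 h, 40410 and 35479 at 48 h, 22754 and 17855 at 72 h, 5083, 4278 and 4316 at 14 d, 3072 at 3 mo and 1456 at 6 mo. The libraries of 24 h, 48 h and 72 h lay above all others without overlap. The log2 change against 0 h was 2.93 ± 0.23 at 24 h, 3.88 ± 0.22 at 48 h and 2.98 ± 0.21 at 72 h (SE; edgeR adjusted p = 5.53e-07, 7.41e-09 and 1.36e-07). Gstm2 of the same family rose by 1.52, 1.73 and 0.97 in log2, and Gstm1 passed at 48 h (1.58) and 72 h (1.62), the second of which lost its call when single sections were left out (adjusted p up to 0.271 without the second 72 h section). In the Pecam1-low cells of the same sections, the log2 change of Gstm3 was 3.53 at 24 h, 4.38 at 48 h and 3.25 at 72 h on the scale of the joint fit, where Pecam1-positive cells had 3.05, 3.91 and 2.97.

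Both cyclin genes tested rose at all 3 times. Ccnd1 in Pecam1-positive cells stood at 6271 and 4925 CPM at 0 h, 14527 at 24 h, 15131 and 15658 at 48 h, 16184 and 14753 at 72 h, 6096, 6443 and 7866 at 14 d, 7454 at 3 mo and 11290 at 6 mo. Its log2 changes were 1.37 ± 0.23, 1.46 ± 0.20 and 1.47 ± 0.20 at 24 h, 48 h and 72 h (SE; edgeR adjusted p = 0.0007, 9.87e-05 and 0.000236). Ccne1, the cyclin E1 gene of entry into S phase, rose in Pecam1-low cells too. There, scaled between both cell classes, it was 261 and 46.4 CPM at 0 h, 1255 at 24 h, 1334 and 1308 at 48 h and 636 and 576 at 72 h. In Pecam1-positive cells Ccne1 averaged 162 ± 150 CPM at 0 h (SD, n = 2) and stood at 839 CPM at 24 h, 1108 ± 129 CPM at 48 h (SD, n = 2) and 917 ± 43.6 CPM at 72 h (SD, n = 2). Its log2 changes of 2.30, 2.71 and 2.43 passed (edgeR adjusted p = 0.0137, 0.00176 and 0.00495), but not within slide 1 alone at 24 h and 72 h (adjusted p = 0.075 and 0.0961).

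Other genes rose at 1 or 2 of these times. At 24 h Oat, the ornithine aminotransferase of central hepatocytes, stood at 19044 CPM against 5132 ± 2110 CPM at 0 h (SD, n = 2; log2 1.89, edgeR adjusted p = 0.00615). Oat rose in Pecam1-low cells too, from 6514 and 3223 CPM at 0 h to 27072 CPM at 24 h, scaled between both cell classes. Wnt7b met the limit of 10 counts in 2 libraries only with the 24 h library, so its call there is a description. It had 18 counts in Pecam1-positive cells at 24 h and 3 at 0 h, a ratio of 6.24 with an exact 95% interval of 1.82 to 33.1 that covers counting error only. Its call, those of Rspo1 (log2 2.30, 19 counts at 24 h and 4 at 0 h) and Cldn7 (2.15) and that of Wnt5a (1.46) each ended when a section was left out, with adjusted p up to 0.0716, 0.296, 0.0917 and 0.0654. Wnt7a had 18 counts at 48 h and 29 at 72 h, against 2 at 0 h, which gave ratios of 5.52 (1.32 to 49.0) and 7.80 (1.97 to 67.4). Its call ended at 48 h in 9 leave-one-out fits and at 72 h without the first 0 h section (adjusted p = 0.0599). Cldn2, a tight junction gene, rose at 48 h (log2 1.71, lost without the second 48 h section at 0.92, adjusted p = 0.0871) and at 72 h (1.32, edgeR adjusted p = 0.0275). Igfbp2 rose at 72 h (log2 0.89, edgeR adjusted p = 0.00969).

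Hepatocyte markers supplied 6 of the 14 falls at 24 h, 7 of 11 at 48 h and 6 of 8 at 72 h, while 16.3%, 12.8% and 9.3% of all 86 genes were lower. The list held 19 of the 86 genes, and none of the 19 was called higher at these times. Cyp2e1, the ethanol-inducible cytochrome of central hepatocytes, was 303854 and 264281 CPM in Pecam1-positive cells at 0 h, 58949 at 24 h, 48350 and 33743 at 48 h, 180496 and 143082 at 72 h, 103479, 88862 and 98582 at 14 d, 215142 at 3 mo and 283700 at 6 mo. Its log2 change was -2.27 at 24 h (-2.14, adjusted p = 0.105 within slide 1), -2.79 at 48 h and -0.81 at 72 h, where the call ended without the second 72 h section (-0.65, adjusted p = 0.264). Cyp8b1, which sets the balance of bile acids, fell to 568 CPM at 24 h and 229 ± 42.6 CPM at 48 h (SD, n = 2), against 2274 ± 671 CPM at 0 h (SD, n = 2), with log2 changes of -2.0 (adjusted p = 0.0533 without the first 0 h section) and -3.31 (edgeR adjusted p = 9.45e-05). Pon1, which encodes the lipoprotein enzyme paraoxonase, changed by -1.52, -0.98 and -0.57 in log2 at 24 h, 48 h and 72 h, and the complement gene C8b by -1.43, -1.02 and -1.18. Prodh, of proline breakdown, changed by -1.19, -1.59 and -1.04. Scaled by cell number, the changes at 72 h were -0.39 for C8b, -0.25 for Prodh, -0.24 for Cyp27a1 and -0.02 for Cyp2e1 (edgeR adjusted p = 0.306, 0.539, 0.539 and 0.933). Csad, an enzyme of taurine synthesis, had 15 counts at 24 h and 111 at 0 h (log2 -2.70), and its call ended without the first 0 h section (-1.46, adjusted p = 0.0971). Wnt10a was lower at 24 h (-1.80) and 48 h (-1.24), without a call in slide 1 alone (adjusted p = 0.238 and 0.351).

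The 25 genes that were higher in Pecam1-positive than in Pecam1-low cells were not alike over time. Among them Ccnd1 and Gstm2 rose at 24 h, 48 h and 72 h, Lyz2 fell at 48 h and 72 h, Lrp6 at 24 h and 14 d, and Wnt4 at 14 d. Fzd4, Gpc1, Lrp5 and Ptprc passed at no time against 0 h, and Epas1 and Wnt1 each at 1. These genes were picked from the 25 and do not stand for the rest. Fzd4 in Pecam1-positive cells was 4910 and 3551 CPM at 0 h, 4001 at 24 h, 4375 and 4770 at 48 h, 5709 and 5360 at 72 h, 3198, 3413 and 4044 at 14 d, 3843 at 3 mo and 3226 at 6 mo. Its log2 changes ran from -0.39 to 0.39. Epas1 was lower at 24 h, at 7966 CPM against 12965 ± 129 CPM at 0 h (SD, n = 2; log2 -0.70 ± 0.22, SE; edgeR adjusted p = 0.0322), and passed at no other time. Wnt1 was lower at 48 h, at 272 ± 18.2 CPM against 749 ± 338 CPM at 0 h (SD, n = 2 each; log2 -1.45, edgeR adjusted p = 0.0195), a call that ended within slide 1 (-0.79, adjusted p = 0.327) and without the second 0 h section (-0.90, adjusted p = 0.12). Lyz2 fell to 4683 and 3735 CPM at 48 h and 4006 and 2021 CPM at 72 h, against 7033 and 11489 CPM at 0 h. Its log2 changes were -1.14 at 48 h, which did not pass within slide 1 (-0.62, adjusted p = 0.144), and -1.63 at 72 h (edgeR adjusted p = 0.00431, but 0.201 within slide 1). Neither passed when scaled by cell number (adjusted p = 0.227 and 0.072), nor did Wnt1 at 48 h (0.173).

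At 14 d, 26 of 86 genes were called against 0 h in Pecam1-positive cells (30.2%, 10 higher and 16 lower), with a median log2 change of 0.08 over all genes tested. Total-count scaling moved the median by 0.52 and gave 23 higher and 8 lower, and scaling by cell number moved it by 1.49 and gave 64 higher and 1 lower. The rises named by size were all scarce transcripts. Fzd2, Wnt16 and Wnt2b met the limit of 10 counts in 2 libraries only through the 14 d sections where they were high. Their calls at 14 d are therefore a description. Fzd2, a frizzled receptor, had 0 counts in Pecam1-positive cells at 0 h and 316 over the 14 d sections, at 67.0, 109 and 56.2 CPM. This was at least 8.48-fold higher when 3 counts are taken as the limit for the 0 h sections together. Pecam1-low cells held 51.5, 83.9 and 51.3 CPM at 14 d and at most 0.412 CPM at 0 h, and its difference in change did not pass (adjusted p = 0.756). Wnt16 had 117 counts at 14 d and 1 at 0 h, a ratio of 9.42 (1.66 to 375). Wnt2b had 180 and 2, a ratio of 7.24 (1.98 to 60.3), and Wnt7a 170 and 2, a ratio of 6.84 (1.87 to 57.0). Sulf2, an extracellular heparan sulphatase, had 730 counts at 14 d and 12 at 0 h (log2 2.31). These genes were higher at 14 d in Pecam1-low cells too, in CPM scaled between both cell classes. There Wnt16 was 5.76 and 4.31 at 0 h and 24.3, 35.4 and 40.7 at 14 d. Wnt2b was 7.0 and 12.0, then 25.6, 35.4 and 59.1. Wnt7a was 8.64 and 9.10, then 24.8, 40.8 and 33.6, and Sulf2 30.5 and 4.79, then 102, 161 and 116. The calls of Wnt16, Wnt2b, Wnt7a and Sulf2 each ended without one of the 0 h sections, with adjusted p of 0.0742, 0.14, 0.0788 and 0.194.

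The falls at 14 d included 9 of 19 hepatocyte markers, against 18.6% of all genes tested. Cyp1a2 fell to 2282 ± 176 CPM at 14 d, against 8124 ± 2910 CPM at 0 h (SD, n = 3 and 2; log2 -1.83 ± 0.22, SE; edgeR adjusted p = 5.4e-05). C6 fell to 1933 ± 188 CPM, against 6841 ± 1164 CPM (log2 -1.82), and the fatty acid elongase Elovl2 to 1598 ± 139 CPM, against 5219 ± 1711 CPM (log2 -1.71). The glutamine synthetase gene Glul stood at 4796 ± 976 CPM at 14 d and 14480 ± 6837 CPM at 0 h (log2 -1.59, edgeR adjusted p = 0.00107). These genes fell in Pecam1-low cells too, in CPM scaled between both cell classes. There Cyp1a2 was 10277 and 5755 at 0 h and 2010, 2196 and 1931 at 14 d. C6 was 23396 and 14510, then 1976, 2863 and 2649. Elovl2 was 7230 and 5329, then 1816, 2516 and 2293, and Glul 8012 and 12030, then 3747, 3002 and 2659. G6pc had the largest fall (log2 -3.08), but its 0 h sections were 5887 and 31584 CPM, and without the second the change was -1.41 (adjusted p = 0.106). Scaled by cell number, Cyp1a2, C6, Elovl2 and Glul did not pass, with log2 changes of -0.34, -0.34, -0.22 and -0.07, and Arg1, Cps1, Lrp6, Wnt4 and Znrf3 changed sign to 0.62, 0.67, 0.47, 0.36 and 0.17. With the 14 d sections as 1 library, 4 genes passed. Of 13 Wnt ligand genes, 4 were higher (Wnt16, Wnt2b, Wnt7a and Wnt11) and Wnt4 was lower. Of 13 frizzled and co-receptor genes Fzd2 was higher and Lrp6 lower. Of 4 Wnt feedback genes 2 were higher (Sulf2 and Axin2) and Znrf3 lower. Over all 86 genes, 11.6% were higher and 18.6% lower. Wnt16, Wnt2b, Wnt11 and Fzd2 were tested only through the 14 d sections where they were high, so these tallies hold genes chosen by that group. The calls of Wnt11 and Axin2 ended without the second 0 h (adjusted p = 0.0742 and 0.0566) or the last 14 d section (0.0787 and 0.0797), that of Znrf3 without the first 0 h section (0.0878), and that of Wnt4 without the first 0 h section or any single 72 h or 14 d section (0.0562 to 0.211).

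At 3 mo none of the 86 genes passed by edgeR, 15 had an unadjusted p under 0.05 (5 higher and 10 lower) and DESeq2 called 4. Without the first 0 h section, 16 passed. At 6 mo, Igfbp2 and Ccnd1 were higher (2.33% of 86). Igfbp2, which encodes a binding protein of insulin-like growth factors, stood at 34386 CPM at 6 mo against 11980 and 15193 CPM at 0 h (log2 1.34 ± 0.26, SE; edgeR adjusted p = 0.0122). Ccnd1 stood at 11290 CPM against 6271 and 4925 CPM (log2 1.01 ± 0.24, SE; edgeR adjusted p = 0.0369). Both calls ended when either 48 h section was left out (adjusted p = 0.0773 and 0.0747). Each of these times has 1 library, and the test assumes that it varies like the others.

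Changes over time differed between Pecam1-positive and Pecam1-low cells for 36 of 91 genes (39.6%), by edgeR's joint test of the 6 differences in change against 0 h. The 5 with the smallest p were Gstm2, Cyp8b1, Lect2, G6pc and Ccnd1. The planned TMM gave 50. Ccnd1 had the smaller log2 change in Pecam1-positive cells at every time, 1.49 against 2.13 at 24 h, 1.49 against 2.14 at 48 h, 1.47 against 1.73 at 72 h, 0.22 against 0.69 at 14 d, 0.23 against 0.86 at 3 mo and 0.76 against 1.71 at 6 mo (adjusted p = 0.00124). All 6 differences are against the same 0 h sections and so do not support one another. Taken time by time, the difference passed at each but 72 h (adjusted p = 0.154). The ratio of Pecam1-positive to Pecam1-low cells was 1.58 and 1.57 in log2 at 0 h and 0.62 at 6 mo, with all other libraries between. Gstm2 changed by 1.63 in Pecam1-positive and 2.43 in Pecam1-low cells at 24 h, by 1.76 and 2.48 at 48 h, and at 6 mo by -0.89 in Pecam1-positive and -1.62 in Pecam1-low cells (adjusted p = 0.000463).

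Cyp8b1 changed by -1.86 in Pecam1-positive and -2.64 in Pecam1-low cells at 24 h, and by -3.27 and -4.03 at 48 h (adjusted p = 0.000563). Its log2 difference between the cell classes was -0.94 and -0.90 at 0 h, -0.14 at 24 h and -0.12 and -0.19 at 48 h. Lect2, a hepatocyte-derived chemotactic factor, differed at 6 mo, with a change of 0.32 in Pecam1-positive and -0.62 in Pecam1-low cells (difference 0.97 ± 0.12, SE; edgeR adjusted p = 0.000384 for that time). G6pc changed by -1.31 in Pecam1-positive and -2.17 in Pecam1-low cells at 48 h, and by -0.98 and -1.76 at 72 h. The differences ran both ways. Cyp2e1, named after its values were seen, changed by -2.16 in Pecam1-positive and -1.82 in Pecam1-low cells at 24 h and by -2.79 and -2.55 at 48 h (edgeR adjusted p = 0.0194 and 0.0377 for these times), and Prodh, named in the same way, by -1.56 in Pecam1-positive and -0.94 in Pecam1-low cells at 48 h (adjusted p = 0.033). The hepatocyte share of counts was the lower one in Pecam1-positive cells in each section, and its part in these differences was not tested. Fzd4 and Epas1 did not pass (adjusted p = 0.157 and 0.108).

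**Figure D5:**
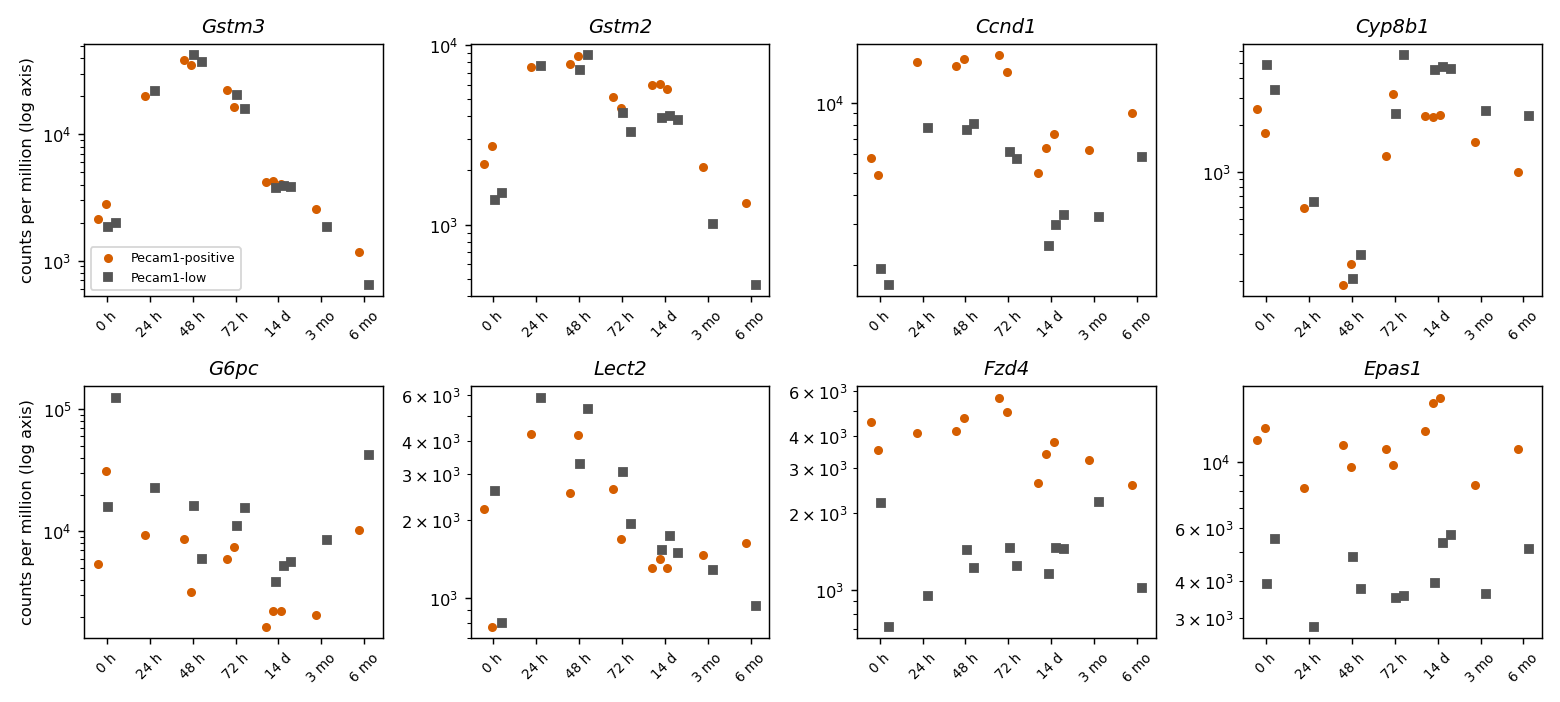
Level of 8 genes (CPM, log axis, scaled between both cell classes of a section) in Pecam1-positive cells (orange circles, left) and Pecam1-low cells (grey squares, right) by time after partial hepatectomy, with 1 point per library. Gstm3, Gstm2, Ccnd1 and Cyp8b1 move in the same direction in both classes at 24 h and 48 h, while Fzd4 and Epas1 stay higher in Pecam1-positive cells at every time.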

How the data were processed

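The authors deposited whole-number transcript counts per gene and cell for each section, and lists of transcript positions for 12 sections, made by Molecular Cartography on frozen sections per the labels' protocols. Decoding, cell outlines and the unit of length are not given in the sources used here. Cell positions come from the names of the count columns. Counts were summed over Pecam1-positive and over Pecam1-low cells of each of 12 libraries. A gene was tested where 2 or more libraries held 10 or more of its counts, with edgeR 4.0.16 in R 4.3.3 (robust quasi-likelihood F test, Benjamini-Hochberg over all genes tested, threshold 0.05); the 6 rule genes stayed in the totals and were not tested. The comparison of times used TMM over all Pecam1-positive libraries. The comparisons of both cell classes used TMM of each Pecam1-positive library against the Pecam1-low library of its section in place of the planned TMM over all libraries. This change was made after the data were seen. In simulated data with 91 genes the planned scaling called 5.01% and 7.03% of unchanged genes (at the spread of either fit), the one used 1.12% and 1.49%. The simulations changed fewer genes than the 56 of 91 that passed in the data, and in random directions. They therefore cannot decide which scaling is right for these data. SEs are the log2 change divided by the square root of F. In simulated data with 86 or 91 genes, the time test called 0.971% of unchanged genes and 41.7% of genes changed by 1 in log2, the class test 1.5% and 98.3%, and the test of the difference in change 1.2% and 86.7%. Correlations of deviations between sections of the same number ran from -0.41 to 0.35. At times with 2 sections the deviations mirror each other, so this check cannot settle whether the numbers pair the sections. Named genes were the 5 largest rises and falls per time, the 10 largest class differences each way, the 5 smallest p for the difference in change, and list members. The members and lists were chosen with earlier results of these data known. Permutation tests used scipy 1.17.1, with 100000 resamples for the share of cells. Intervals and floors cover counting error only.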

Additional observations from a re-analysis of the deposited data

Results flagged for a closer look

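Of the 36 genes whose change over time differed between Pecam1-positive and Pecam1-low cells by the joint edgeR test, the 5 with the smallest p are given here. The adjusted p was 0.000463 for Gstm2, 0.000563 for Cyp8b1, 0.000589 for Lect2, 0.00114 for G6pc and 0.00124 for Ccnd1. None of these 5 calls ended under the alternatives run for them. All times are compared with the same 0 h sections. The difference of Ccnd1 did not pass at 72 h taken alone, and that of Lect2 passed at 6 mo, which has 1 library.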

How the results depend on the processing

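With the 14 d sections as 1 library, 9 genes passed at 24 h, 12 at 48 h and 4 at 14 d, 14 differed in their change, and F for the share of cells was 2.50 (permutation p = 0.222). Within slide 1 alone, 12 genes passed at 24 h, 11 at 48 h and 7 at 72 h. Scaled by cell number, 29 passed at 72 h (29 higher and 0 lower), 65 at 14 d (64 and 1) and 0 at 6 mo, and 15 were higher in Pecam1-positive than in Pecam1-low cells (this last scaling was added after seeing the data). With total-count scaling 0 passed at 6 mo, and 41 were higher and 17 lower in Pecam1-positive cells; with no section block these were 10 and 8. With the section number as a replicate block, 17 genes passed at 48 h, 9 at 72 h and 16 at 14 d. Whether the numbers pair the sections was not settled. DESeq2 called 4 genes at 3 mo and 11 at 6 mo, and at 6 mo 9 passed with no filter, 7 with the 24 h sections apart and 8 with at least 5 Pecam1 counts in the rule. TMM over all libraries, the planned scaling, gave 23 higher, 39 lower and 50 with a different change, and ended 1 named call of the class comparison, Ccna1.

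Without single sections, 17 to 28 genes passed at 24 h, 10 to 29 at 48 h, 10 to 24 at 72 h, 16 to 31 at 14 d, 0 to 16 at 3 mo and 0 to 13 at 6 mo, 23 to 27 were higher and 29 to 34 lower in Pecam1-positive cells, and 18 to 56 differed in their change. F for the share ran from 4.92 to 22.7. The position differences ran from -4.79 to -3.93 against Pecam1-low, -3.99 to -2.73 against Adgre1-positive, -7.96 to -5.96 against Lrat-positive and -41.0 to -39.6 against Wnt2/Wnt9b/Rspo3-positive cells, and the log2 ratio of neighbours from 0.141 to 0.183. The difference from Adgre1-positive cells passed with 50 nearest cells (-3.52), the 24 h sections apart (-3.90) and at least 5 Pecam1 counts (-5.40). Without the limit on Wnt2, Wnt9b and Rspo3, chosen after seeing the data, the differences were 1.11 against Pecam1-low, 2.29 against Adgre1-positive and -1.28 against Lrat-positive cells.

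Of 2606 values of named genes under alternatives, 2257 kept their direction and call, 338 lost the call and 11 changed sign. Of 65 named calls over time 51 ended somewhere, 34 of them without a single section; of 39 between the cell classes 24 and 5, and of 5 differences in change 0. Scaled by cell number at 14 d, the log2 changes turned to 0.62 for Arg1, 0.67 for Cps1, 0.47 for Lrp6, 0.36 for Wnt4 and 0.17 for Znrf3. Between the classes, total-count scaling turned Arg1 to 0.064, Fzd5 to 0.043 and Oat to 0.017, Oat was 0.15 against adjacent cells and 0.11 among cells of like total counts, and Wnt5a was -0.0045 there. The causes were not tested. Depth limits the scarce ligands, such as Wnt7a with 2 counts at 0 h.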
